A study of Mus musculus with 6 samples.

Results

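A set of 9 genes of insulin and IGF signalling was followed in mouse gastric corpus organoids with and without Erbb2 overexpression. They are the receptors Insr and Igf1r, the insulin receptor substrates Irs1 and Irs2, the PI3K catalytic subunits Pik3ca and Pik3cb, the regulatory subunits Pik3r1 and Pik3r3, and the PI3K inhibitor Pik3ip1. They were chosen by name, with earlier results of these data known. All 9 were found among the 25528 genes of the count tables, and all 9 were among the 12593 genes with enough counts to be tested. The organoids are three-dimensional cultures of epithelium from the stomach corpus, where acid is secreted. The group labelled Erbb2_OE_Corpus overexpresses Erbb2, and the group labelled Ctrl_Corpus carries an empty vector, with 3 libraries of polyadenylated RNA in each. The labels do not give the strain or age of the animals, the promoter of the construct, or whether a group is 1 line or several. They do not say that its libraries are separate cultures either, so p-values measure only the spread between these libraries, which may be technical.

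Insulin and the insulin-like growth factors act through 2 related receptor tyrosine kinases, INSR and IGF1R. The active receptors phosphorylate the docking proteins IRS1 and IRS2 on tyrosines, which then bind the regulatory subunit of class I PI3K and bring its catalytic subunit to the membrane. The lipid made there activates AKT, which holds FOXO transcription factors out of the nucleus and, through mTOR complex 1, promotes protein synthesis. ERBB2 reaches the same kinase by another route, mainly through its partner ERBB3, which binds the regulatory subunit directly.

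The largest fitted difference among the 9 was that of Igf1r, and that of Irs2 was next. Igf1r was higher in each Erbb2 library than in any control, with a fitted fold of 1.62. When libraries with the same replicate number were compared within pairs, it alone of the 9 passed an adjusted p of 0.05. In that comparison 2.37% of all genes were called higher and 3.09% passed in either direction. Irs2 and Insr were also higher in 3 of 3 pairs but did not pass. Irs2 averaged 10.8 CPM (counts per 1000000 counts after scaling) in controls and 16.4 CPM in Erbb2 organoids, but its groups overlapped and it missed the threshold. The other 7 had fitted folds between 0.919 and 1.14 with the pairing. None of the 9 passed without the pairing, where 0% of all genes did.

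Igf1r and Irs2 had the largest differences, and Insr, which the plan also named, had no promoter sequence in the reference used. Irs1, the paralog of Irs2, was added after its values were seen. The sequences before the start sites of Igf1r, Irs2 and Irs1 are therefore shown. Each is the 250 bases before the start from RefSeq on build GRCm38.p6, on the strand of the gene, at chr7:67952007-67952256 (plus strand) for Igf1r, chr8:11008930-11009179 (minus strand) for Irs2 and chr1:82291440-82291689 (minus strand) for Irs1. The counts were made on GRCm39, so these positions do not apply to them. Capitals mark CAAAACA, a form of the insulin response element that FOXO factors bind, or its reverse complement TGTTTTG, and the E-box CACGTG, which reads the same on both strands.
Igf1r: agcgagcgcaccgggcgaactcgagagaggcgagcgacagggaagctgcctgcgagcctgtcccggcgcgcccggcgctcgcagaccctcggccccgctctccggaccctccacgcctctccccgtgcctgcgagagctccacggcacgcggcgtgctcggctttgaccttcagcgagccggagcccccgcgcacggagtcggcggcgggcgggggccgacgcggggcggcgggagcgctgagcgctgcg
Irs2: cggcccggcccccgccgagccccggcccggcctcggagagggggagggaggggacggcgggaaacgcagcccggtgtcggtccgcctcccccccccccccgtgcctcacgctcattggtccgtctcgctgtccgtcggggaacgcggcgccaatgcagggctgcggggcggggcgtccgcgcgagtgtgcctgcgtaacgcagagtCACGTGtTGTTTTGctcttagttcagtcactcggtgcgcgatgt
Irs1: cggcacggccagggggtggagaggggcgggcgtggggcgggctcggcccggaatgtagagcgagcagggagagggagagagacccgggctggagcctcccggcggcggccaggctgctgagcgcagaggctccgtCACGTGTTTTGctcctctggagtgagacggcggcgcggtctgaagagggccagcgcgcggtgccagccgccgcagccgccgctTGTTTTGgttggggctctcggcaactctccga
A match to the insulin response element began 37 bases before the start of Irs2, and 111 and 32 bases before that of Irs1. The E-box began 44 bases before the start of Irs2 and 115 bases before that of Irs1, where its last bases are the first of an insulin response element. The Igf1r window held neither motif, and nor did the 8 windows of Pik3ca, Pik3cb, Pik3r1, Pik3r3 and Pik3ip1. The FOXO site GTAAACA, searched on both strands, was in none of the 11 windows of the 8 genes that had a window. Insr had none and was not searched for any motif. Among all 32851 RefSeq windows of 300 bases (250 before to 50 after a start), 6.28% held this insulin response element on either strand, 7.15% held the E-box, 0.408% held both, and 3.65% held that FOXO site. The E-box was added after the windows of Irs1 and Irs2 had been seen. A match is a description of these letters and not evidence of binding.

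Total counts lay between 18735853 and 22767455 per library and were lowest in replicate 2 of both groups. Replicate 2 also had the highest share of mitochondrial counts, 10.6% in the control and 11.1% in the Erbb2 library. The other libraries had 6.33% to 8.14%, and the part of this in the differences between pairs was not tested. Erbb2 itself was at 125, 164 and 128 CPM in control replicates 1, 2 and 3 and at 342, 349 and 285 CPM in the Erbb2 libraries, so no control reached any Erbb2 library (log2 fold change 1.24 with an SE of 0.09, edgeR adjusted p = 3.47e-05 with the replicate number as a block and 0.640 without). Without a pairing edgeR called 0 genes at an adjusted p under 0.05 (0% of 12593), with 3.33% at an unadjusted p under 0.05, and DESeq2 called 0.27%. With the replicate number as a block, which compares libraries of the same number, edgeR called 389 genes, or 3.09%, and 2.37% as higher. The epithelial markers Epcam and Cdh1 were high in all libraries, at 672 to 850 and 1937 to 2279 CPM, and 9 of 9 epithelial markers were tested. With the block 1 of the 9 was called lower and 0 higher. It was Sox2, at 27.8 to 82.6 CPM over all libraries (log2 fold change -0.48, edgeR adjusted p = 0.0144). Of the 6 parietal and chief cell markers, Atp4b was at 0 in all libraries and Lipf at no more than 0.113 CPM. Atp4a was at 2.87 to 5.41 CPM, Pga5 at 0 to 3.155 CPM and Pgc, a pepsinogen, at 52.0 to 97.3 CPM. Cblif was at 38.2 CPM in control replicate 3 and 32.1 CPM in Erbb2 replicate 3. In the other libraries Cblif was at 0.793 to 3.62 CPM. The count filter kept 1 of 9 markers of fibroblasts and muscle, 2 of 7 of immune cells and 2 of 6 of endothelium. The 9 fibroblast and muscle markers summed to 0.789 to 1.64 CPM in controls and 1.53 to 1.76 CPM in Erbb2 libraries, with Col1a2, Dcn, Lum, Pdgfrb and Des at 0. The immune markers summed to 20.8 to 54.1 and 18.5 to 73.9 CPM, nearly all from Cd68, with Adgre1 at 0, and the endothelial markers to 2.76 to 5.94 and 2.77 to 14.5 CPM. The 6 pit and mucous neck cell markers summed to 145 to 231 CPM in controls and 286 to 527 CPM in Erbb2 libraries, without overlap.

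**Figure D1:**
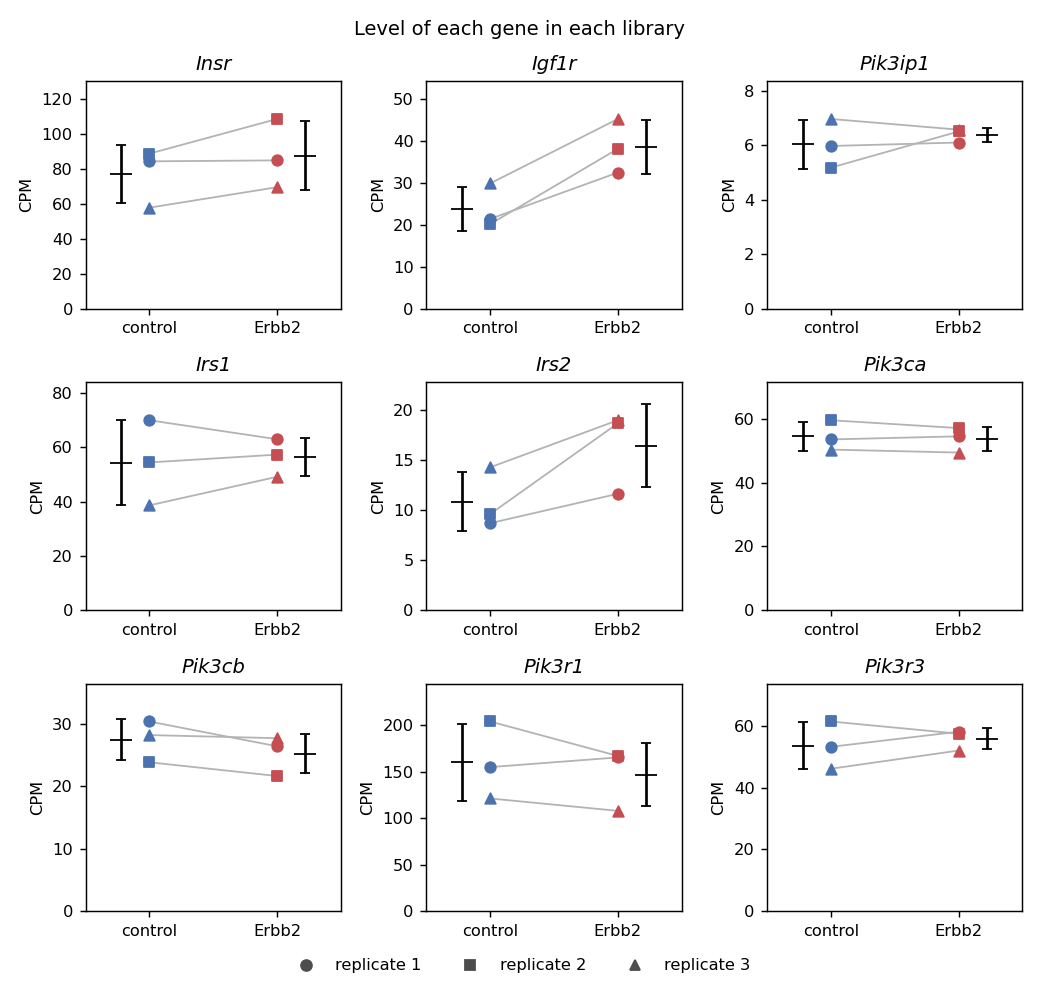
Level of the 9 genes in each library in CPM (vertical axes, linear, from 0, scaled per panel), in control (blue) and Erbb2 (red) organoids. Symbols are replicate numbers, grey lines join libraries of the same number, and bars beside them give the mean and SD of 3 libraries. The Igf1r panel is the one in which no control reaches the lowest Erbb2 library.

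Igf1r encodes the receptor for the insulin-like growth factors. It was at 21.4, 20.2 and 29.9 CPM in control replicates 1, 2 and 3 and at 32.4, 38.1 and 45.2 CPM in Erbb2 replicates 1, 2 and 3 (gene ENSMUSG00000005533). All 3 Erbb2 libraries lay above all 3 controls, and replicate 3 was the highest in both groups. The mean was 23.8 ± 5.27 CPM in controls and 38.6 ± 6.40 CPM in Erbb2 organoids (SD, n = 3). The counts behind these values were 358 to 694 in controls and 673 to 1086 in Erbb2 libraries. Within pairs the log2 difference was 0.60, 0.92 and 0.60 for replicates 1, 2 and 3. With the replicate block the log2 fold change was 0.70 (SE 0.11, 95% interval 0.46 to 0.93, edgeR adjusted p = 0.00535), so that Igf1r rose 1.62-fold, and by its p it was number 68 of the 12593 genes. Without the block the log2 fold change was 0.69 with an SE of 0.20 (unadjusted p = 0.00961, edgeR adjusted p = 0.9997), and DESeq2 without the block gave an adjusted p of 0.389. Leaving out 1 pair at a time in the fit with the block gave an adjusted p of 0.0148, 0.0538 and 2.54e-06 for pairs 1, 2 and 3, so the call was lost without pair 2. The log2 fold change in those 3 fits was 0.75, 0.61 and 0.76. In a bulk library more cells that express a gene and more RNA of it per cell cannot be told apart. The pit and mucous neck cell markers moved with the same groups, and their part in the Igf1r difference was not tested.

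Insr encodes the insulin receptor. Its level was 84.4, 88.8 and 57.9 CPM in control replicates 1, 2 and 3 and 85.0, 108.7 and 69.6 CPM in the Erbb2 libraries (gene ENSMUSG00000005534). The groups overlapped widely, and replicate 3 was the lowest library in both. The log2 fold change with the block was 0.19 (SE 0.09, 95% interval -0.002 to 0.38, edgeR adjusted p = 0.301), with an estimate above 0 in each pair. Without the block it was 0.19, and 0.0037 without Erbb2 replicate 2 or 0.020 without control replicate 3. With the block a rise of more than 1.30-fold lay outside the interval, and the whole interval of Insr lay below that of Igf1r. Without the block the 95% intervals overlapped, at -0.33 to 0.70 for Insr and 0.23 to 1.16 for Igf1r.

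Irs2 and Irs1 encode the docking proteins that both receptors share. Irs2 was at 8.67, 9.58 and 14.2 CPM in control replicates 1, 2 and 3 and at 11.6, 18.6 and 18.9 CPM in the Erbb2 libraries (gene ENSMUSG00000038894). Erbb2 replicate 1 lay below control replicate 3, so the groups overlapped, while each Erbb2 library exceeded the control of its own number. The log2 differences within pairs were 0.42, 0.96 and 0.41, and the fit with the block gave 0.58 (SE 0.16, 95% interval 0.25 to 0.92, unadjusted p = 0.00265, edgeR adjusted p = 0.0682). Its adjusted p with pair 1, 2 or 3 left out was 0.122, 0.431 and 0.00536, so Irs2 passed once pair 3 was gone. With the block 2 of the 9 had an unadjusted p under 0.05, Igf1r and Irs2, where 16.8% of all genes had one. Irs2 rested on fewer counts than Irs1, 170 to 331 in controls and 266 to 455 in Erbb2 libraries.

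Irs1 was at 70.0, 54.4 and 38.6 CPM in control replicates 1, 2 and 3 and at 63.0, 57.3 and 49.1 CPM in the Erbb2 libraries (gene ENSMUSG00000055980). The Erbb2 values lay inside the range of the controls, and within both groups replicate 1 was highest and replicate 3 lowest. The pairs pointed in different directions, with log2 differences of -0.15, 0.07 and 0.35. The log2 fold change with the block was 0.09 (SE 0.10, 95% interval -0.14 to 0.31, edgeR adjusted p = 0.743), and it was -0.04 without replicate 3. A predicted gene on the opposite strand, Gm9747, covers 30.9% of the Irs1 exon bases, and it held at most 6 counts in any library. How reads in those bases were assigned is not stated, and any effect on the level of Irs1 was not tested.

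Neither catalytic subunit passed the test. Pik3ca, which encodes p110 alpha, the class I isoform that receptor tyrosine kinases chiefly use, was at 53.7, 59.7 and 50.5 CPM in control replicates 1, 2 and 3 and at 54.6, 57.2 and 49.5 CPM in the Erbb2 libraries (gene ENSMUSG00000027665). No pair differed by more than 0.06 on the log2 scale. The log2 fold change with the block was -0.02 (SE 0.09, edgeR adjusted p = 0.942), and its 95% interval, taken as a fold, ran from 0.866 to 1.12. Pik3cb, which encodes p110 beta, stood at 30.4, 23.8 and 28.2 CPM in control replicates 1, 2 and 3 and at 26.4, 21.6 and 27.7 CPM in the same replicates with Erbb2 (gene ENSMUSG00000032462). Each Erbb2 library was below the control of its number, by 0.20, 0.14 and 0.03 on the log2 scale, and the groups overlapped. Its log2 fold change with the block was -0.12 (SE 0.11, 95% interval -0.36 to 0.11, edgeR adjusted p = 0.635).

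Pik3r1 and Pik3r3 encode p85 alpha and p55 gamma, regulatory subunits that hold the catalytic subunit in check and bind phosphorylated tyrosines. Pik3r1 was at 154.9, 203.9 and 121.2 CPM in control replicates 1, 2 and 3 and at 165.3, 166.9 and 107.9 CPM in the Erbb2 libraries (gene ENSMUSG00000041417). Its range within the controls, 0.75 on the log2 scale, exceeded its fitted change of -0.12 with the block (SE 0.09, 95% interval -0.31 to 0.07, edgeR adjusted p = 0.545). Pik3r3 was at 53.2, 61.3 and 46.1 CPM in controls and at 58.0, 57.4 and 52.0 CPM in the Erbb2 libraries (gene ENSMUSG00000028698). Its Erbb2 libraries all fell within the range of the controls, and its log2 fold change with the block was 0.07 (SE 0.09, 95% interval -0.13 to 0.27, edgeR adjusted p = 0.765). Another annotated gene on the same strand, Gm49337, shares 24.3% of the Pik3r3 exon bases and is not among the genes of the count tables. How reads in such shared bases were assigned is not stated, and any effect on the level of Pik3r3 was not tested.

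Pik3ip1 encodes a membrane protein that binds the catalytic subunit and lowers its activity. It was the least abundant of the 9 in CPM, at 5.98, 5.18 and 6.97 CPM in control replicates 1, 2 and 3 and at 6.11, 6.51 and 6.58 CPM in the Erbb2 libraries (gene ENSMUSG00000034614). The Erbb2 values were closer together than the controls and lay inside their range. With 92 to 162 counts per library it was also the least precisely measured, with a log2 fold change of 0.07 (SE 0.19, 95% interval -0.35 to 0.49, edgeR adjusted p = 0.896 with the block).

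**Figure D2:**
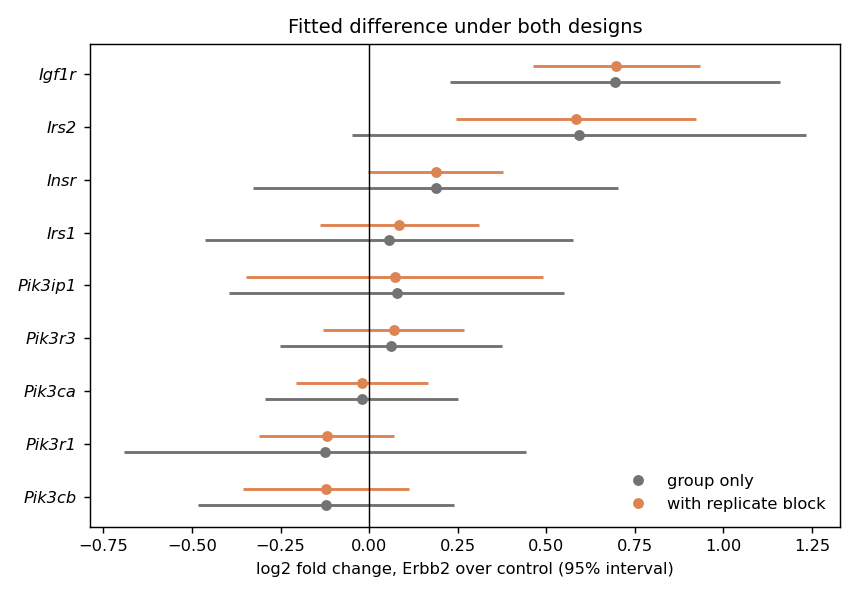
Fitted log2 fold change of Erbb2 over control organoids (horizontal axis) for each of the 9 genes, as points with 95% intervals from edgeR, with the group as the only term (grey) and with the replicate block (orange). Points of both fits nearly coincide, the block narrows most intervals, and with the block the intervals of Igf1r and Irs2 lie wholly above 0.

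Read against all genes, the counts for the 9 were small. Without the block 0 of 9 passed in edgeR and 0 in DESeq2, and Igf1r alone had an unadjusted p under 0.05 in edgeR. With the block 1 of 9 was called higher and 0 lower, where 2.37% of all genes were called higher. The groups did not overlap for 1 of 9, where they did not for 8.75% of all genes. All 3 pairs gave the same direction for 4 of 9, namely Igf1r, Irs2 and Insr upward and Pik3cb downward, against 38.5% of all genes. Both of these shares are near the background and show nothing about the genes as a group. The median log2 fold change of the 9 was 0.07 with the block, and that of all genes tested was -0.01.

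Differences between replicate numbers were as large as those between groups for most of the 9. In 8 of 9 genes the range of the 3 controls on the log2 scale exceeded the fitted change between groups, the exception being Igf1r (control range 0.57, log2 fold change 0.69 without the block). The same replicate number was lowest in both groups for 7 of 9 genes. Replicate 3 was lowest in both groups for Irs1, Insr, Pik3ca, Pik3r1 and Pik3r3, and highest in both for Irs2, Igf1r and Pik3ip1. Cd68, a macrophage and lysosome marker, was also highest in replicate 3 of both groups. It was at 52.9 and 72.8 CPM there, against 17.3 to 34.8 CPM in the other 4 libraries. Cblif had the same maximum, at 38.2 and 32.1 CPM against 0.793 to 3.62 CPM. The epithelial marker Cldn18 had it too, at 920 and 1168 CPM against 307 to 752 CPM. The part of these markers in the patterns was not tested. The labels do not say what the numbers stand for.

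Scaled to the length of the annotated exons, the genes kept a similar order in both groups. In controls Pik3r1 was highest at 15.9 ± 4.13 CPM per kb (SD, n = 3), followed by Pik3r3 at 10.1 ± 1.44, Pik3ca at 6.01 ± 0.517, Irs1 at 5.94 ± 1.72, Insr at 5.61 ± 1.22, Pik3cb at 3.82 ± 0.462, Irs2 at 1.71 ± 0.473, Igf1r at 1.42 ± 0.314 and Pik3ip1 at 1.42 ± 0.210 CPM per kb. The ranges of neighbours overlapped among Pik3ca, Irs1, Insr and Pik3cb and among Irs2, Igf1r and Pik3ip1, so the order within those groups is not resolved. In Erbb2 organoids Igf1r stood at 2.30 ± 0.381 CPM per kb, and its range was then apart from that of Pik3ip1 (1.498 ± 0.0598) and still overlapped that of Irs2 (2.59 ± 0.656). Both regulatory subunits lay above both catalytic subunits per length in every library of each group. The exon lengths come from an earlier assembly and count every annotated exon, so a gene with long exons that these cells skip appears lower than it is.

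**Figure D3:**
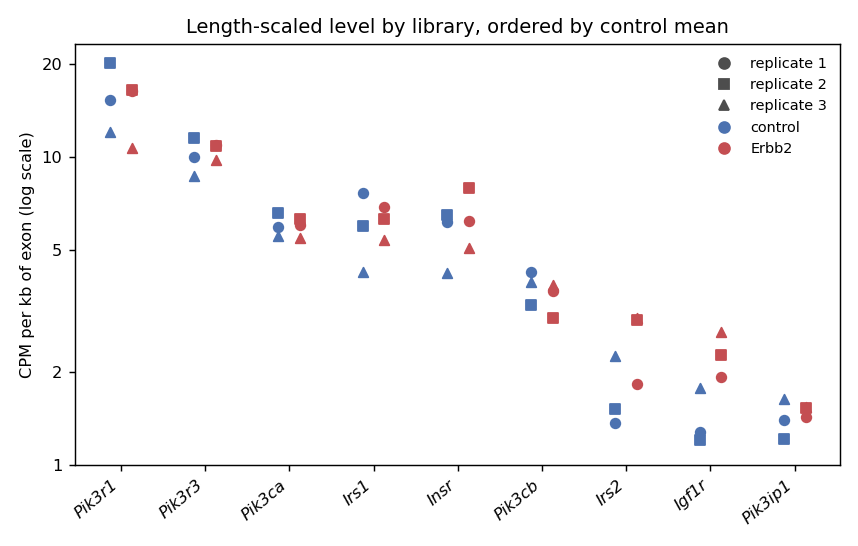
Level of the 9 genes in CPM per kb of annotated exon (vertical axis, log scale) for each library of control (blue) and Erbb2 (red) organoids, ordered by the control mean, with symbols for replicate numbers. Pik3r1 lies near 15.9 and Pik3ip1 near 1.42 in controls, and the Igf1r points are higher in the Erbb2 libraries.

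Ratios between paralogs within a library do not depend on how libraries are scaled. Insr exceeded Igf1r per kb by 4.82, 5.38 and 2.37-fold in control replicates 1, 2 and 3 and by 3.20, 3.48 and 1.88-fold in the Erbb2 libraries. The ratio was lower in the Erbb2 library of each pair, by 0.59, 0.63 and 0.33 on the log2 scale, but replicate 3 was low in both groups and the groups overlapped. The mean log2 difference was -0.52 (exact two-sided permutation p = 0.3, adjusted p = 0.533 over 4 ratios). Irs2 was at 0.179, 0.254 and 0.534 of the Irs1 level per kb in controls and at 0.266, 0.470 and 0.558 in Erbb2 libraries, a mean log2 difference of 0.51 (exact permutation p = 0.4, adjusted p = 0.533). With 1 library left out the difference ranged from -0.88 to -0.24 for Insr over Igf1r and from 0.16 to 0.95 for Irs2 over Irs1. The ratio of Pik3ca to Pik3cb differed by 0.10 on the log2 scale and that of Pik3r3 to Pik3r1 by 0.19 (exact permutation p = 0.6 and 0.4, adjusted p = 0.6 and 0.533). With 3 libraries against 3 the smallest p this test can give is 0.1, so none of the 4 ratios could pass 0.05.

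**Figure D4:**
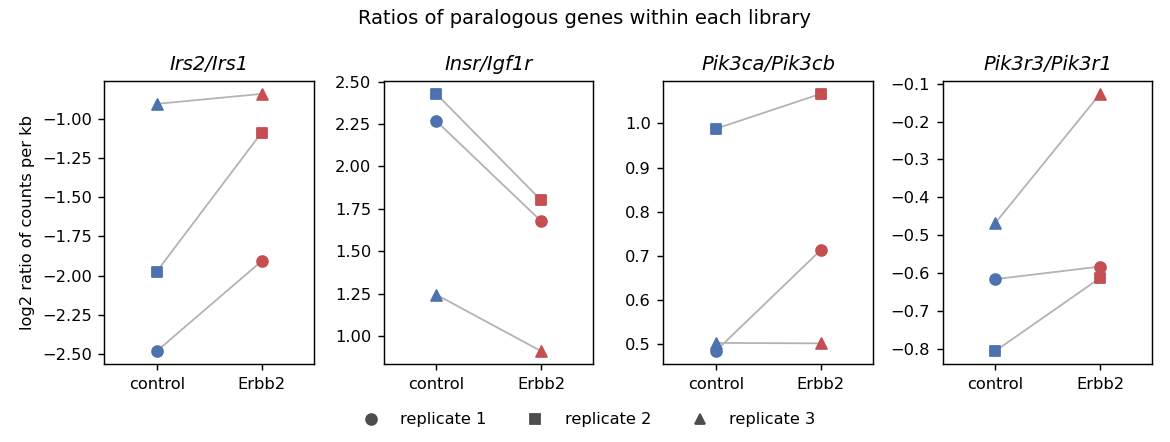
Log2 ratio of counts per kb between paralogs (vertical axes, scaled per panel) in control (blue) and Erbb2 (red) libraries, with lines joining libraries of the same replicate number. The Insr to Igf1r ratio is lower at the Erbb2 end of all 3 lines, by 0.33 to 0.63, while its groups overlap.

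Among 109 other genes of the pathway, grouped by role, 91 were tested. With the block 2 were called higher, Igf2r and Eif4ebp1, and 0 lower, and without it 0 passed in either direction (edgeR). With 2.37% of all genes called higher with the block, 2 of 91 is near the background and shows nothing about the pathway as a whole. The median log2 fold change of the 91 was 0.02.

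Of 14 ligands, binding proteins and related receptors, 5 were tested, and with the block 1 was called higher and 0 lower. The genes of the ligands, Ins1, Ins2, Igf1 and Igf2, were among the 9 below the count filter, which reached at most 0.349 CPM. Igf2r, which encodes a receptor that takes IGF2 to lysosomes without signalling, was at 282.7, 242.4 and 291.4 CPM in control replicates 1, 2 and 3 and at 346.1, 368.2 and 343.2 CPM in the Erbb2 libraries. No control reached the lowest Erbb2 library, and Igf2r rose 1.30-fold with the block (log2 fold change 0.38, SE 0.09, edgeR adjusted p = 0.0350). It missed the threshold without the replicate 1 pair (adjusted p = 0.0736) and without the replicate 2 pair (adjusted p = 0.394). The list's median log2 fold change was 0.52 over these 5 genes.

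Of 17 genes of the TSC and mTOR complexes and their targets, 17 were tested, and with the block 1 was called higher and 0 lower. Eif4ebp1 encodes the translation repressor 4E-BP1, which mTOR complex 1 inactivates. It was at 27.2, 15.5 and 26.7 CPM in control replicates 1, 2 and 3 and at 39.3, 26.3 and 39.6 CPM in the Erbb2 libraries. Replicate 2 was the lowest in both groups, which overlapped, and each Erbb2 library exceeded its own control. It rose 1.52-fold with the block (log2 fold change 0.61, SE 0.11, edgeR adjusted p = 0.00974), and its adjusted p was 0.0759 without the replicate 2 pair.

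No gene of the remaining 7 lists passed with or without the block. Of 21 adaptors and receptor regulators 19 were tested, and the nearest to the threshold were Enpp1, a membrane phosphodiesterase that inhibits the insulin receptor, with a log2 fold change of 0.35 (edgeR adjusted p = 0.0634 with the block), and Socs3, a suppressor of cytokine and insulin signalling, with -0.21 (adjusted p = 0.233). Of 6 other class I PI3K subunits 4 were tested, and Pik3r5 and Pik3cg, the p101 and p110 gamma subunits of the isoform downstream of G protein-coupled receptors, stood at -0.47 and -0.51 (adjusted p = 0.233 and 0.297). Without control replicate 2 both estimates turned, in the fit without the block, from -0.52 to 0.11 for Pik3r5 and from -0.54 to 0.018 for Pik3cg. Both were low, with control means of 9.97 ± 7.66 and 4.75 ± 2.89 CPM (SD, n = 3). All 5 class II and III genes were tested, with log2 fold changes between -0.09 for Pik3c2a and 0.05, and Pik3c3, the kinase of autophagy and endosomes, at -0.05. Of 10 lipid and AKT phosphatases, all tested, Inpp5j and Phlpp2 were nearest to the threshold, each with a log2 fold change of 0.24 (edgeR adjusted p = 0.471 and 0.559 with the block).

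Among the 9 kinases PDK1, AKT, SGK and GSK3, all tested, Gsk3a stood at -0.19 and Sgk3 at 0.37 on the log2 scale (edgeR adjusted p = 0.231 and 0.368 with the block). The groups did not overlap for 3 of the 9, these 2 and Akt1, which is named after its values were seen, where 8.75% of all genes did not overlap. Of 4 FOXO genes 3 were tested, with Foxo3 at 0.12 and Foxo4 at -0.08. Of 23 FOXO target genes besides the 9, 19 were tested. Gadd45a, a stress-response gene, had 0.36 and Sod2, the mitochondrial superoxide dismutase, -0.24 (edgeR adjusted p = 0.158 and 0.163 with the block). In this list 11 of 19 were above 0 and the median log2 fold change was 0.02.

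**Figure D5:**
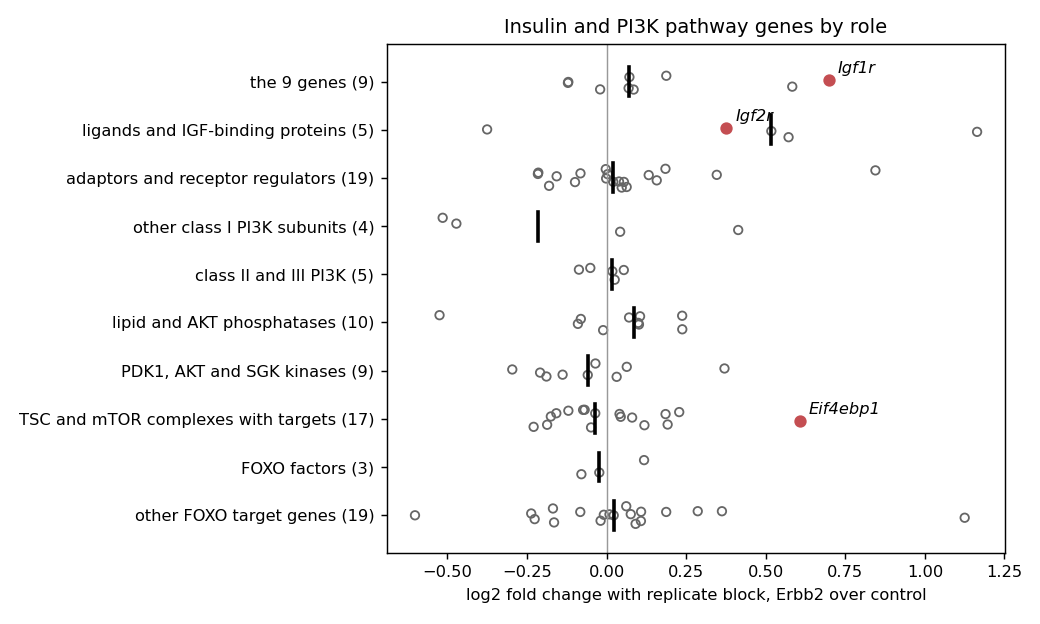
Log2 fold change with the replicate block (horizontal axis) of the 9 genes and of the tested genes of each pathway list (rows, number tested in brackets). Each circle is a gene, filled and named where the edgeR adjusted p was under 0.05, and black bars are medians; 3 genes are filled, Igf1r, Igf2r and Eif4ebp1.

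The genes whose profile over the 6 libraries came nearest to that of Igf1r were Notch3, Mcc and Ier3. Likeness was measured as the root mean square difference of log2 CPM after each profile was centred on its own mean, and it was 0.0592, 0.0860 and 0.0890 for these 3, where the median over all genes was 0.478. Notch3, a Notch receptor, was at 14.4, 14.9 and 22.4 CPM in control replicates 1, 2 and 3 and 24.0, 26.3 and 33.2 CPM in Erbb2 libraries. It has the replicate 3 maximum in both groups that Igf1r has, which follows from picking it by its likeness. For Irs2 the nearest were Med18, Kalrn and Ninj1, at 0.0783, 0.112 and 0.119, and for Insr they included Kdm7a and Golgb1, at 0.0319 and 0.0496. Kdm7a and Golgb1 shared the low value of Insr in replicate 3 of both groups, which likewise follows from how they were picked.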

How the data were processed

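Polyadenylated RNA of 6 organoid libraries was sequenced, per the labels. The deposited tables, 1 per library, hold unnormalized counts of reads for each Ensembl gene. Per the submitters' processing notes the authors used STAR, featureCounts and GRCm39. No version, annotation or strand setting was given in the sources used here. Whether reads of a gene and of one antisense to it were kept apart is therefore not known. Symbols were matched by Ensembl ID to GENCODE M21 for 25424 of 25528 genes.

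Counts were tested with edgeR 4.0.16 in R 4.3.3, with filterByExpr at its minimum count of 10, TMM scaling, robust quasi-likelihood F tests (two-sided) and Benjamini-Hochberg adjustment over all 12593 genes at a threshold of 0.05. The script was tested on simulated data. The fit of design had the group as its single term. Correlations of deviations from the group means were 0.333, 0.660 and 0.707 for libraries numbered 1, 2 and 3. They were 0.128 for control 1 with Erbb2 2 and 0.0962 for control 2 with Erbb2 1. Between a replicate 3 and another number they were -0.657 to -0.28. Deviations within a group sum to 0, so these values depend on each other, and pair 1 is the weakest. The numbers were taken to pair the libraries, and values with the replicate block are given beside that fit. The pairing rests on the numbers in the titles and on this check alone. No 2 libraries of a group agreed within sampling noise (chi-square per degree of freedom at least 33.5). CPM per kb used GENCODE M21 exon lengths.

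Alternatives were other scalings, DESeq2 1.42.0, voom in limma 3.58.1, other filters, removal of mitochondrial genes and Erbb2, and left-out libraries or pairs. Members and lists were chosen with earlier results of these data known. Named genes are Erbb2, the 9 members, pathway genes that passed in either fit or otherwise the 2 of each list with the smallest p with the block, and the 3 nearest profiles of the 3 members with the smallest p. Protein sequences were not used here, and some genes that the rule names are not reported here.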

Additional observations from a re-analysis of the deposited data

How the results depend on the processing

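With the replicate block edgeR called 298 genes higher and 91 lower, 1 of the 9 members and 2 pathway genes. These 4 counts were 312, 83, 1 and 3 with relative log expression scaling, 288, 93, 1 and 2 with upper quartile scaling, 366, 96, 1 and 3 with DESeq2, and 311, 106, 1 and 2 with limma voom, all with the block. With pair 1, 2 or 3 left out they were 173, 40, 1 and 3, then 122, 24, 0 and 0, then 769, 320, 2 and 10. The adjusted p of Igf1r ranged over these scalings and tools from 0.000127 to 0.00617, and that of Irs2 from 0.0623 to 0.0760. Without the block DESeq2 called 28 genes higher and 6 lower, and no other scaling, filter or tool tried without it called a gene. Leaving out 1 library called 0 genes higher, or 1 without control replicate 3, and 0 lower, and no member or pathway gene. The log2 fold change of Erbb2 passed at 1.23 with DESeq2, and with the block at 1.24, 1.24 (relative log expression), 1.23 (upper quartile), 1.24 (DESeq2) and 1.24 (voom), and at 1.12, 1.32 and 1.28 without pair 1, 2 and 3.

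Several estimates changed sign when 1 library was left out. The log2 fold change then ranged from -0.14 to 0.28 for Irs1, -0.072 to 0.047 for Pik3ca, -0.29 to 0.087 for Pik3r1, -0.033 to 0.17 for Pik3r3, -0.019 to 0.20 for Pik3ip1, -0.62 to 0.20 for Socs3, -1.03 to 0.11 for Pik3r5, -0.95 to 0.018 for Pik3cg, -0.37 to 0.056 for Pik3c2a, -0.23 to 0.16 for Pik3c3, -0.012 to 0.23 for Foxo3 and -0.21 to 0.00057 for Foxo4, and the difference in the log2 ratio of Pik3ca to Pik3cb from -0.051 to 0.27. With the block it was 0.021 for Foxo4 without pair 1, then 0.012 for Pik3ca, -0.016 for Pik3ip1, 0.0041 for Pik3c2a and 0.010 for Pik3c3 without pair 2, and -0.036 for Irs1 without pair 3. Igf1r, Irs2, Insr and Pik3cb kept their sign in every fit, but with 1 library left out their log2 fold change ranged from 0.56 to 0.90, 0.45 to 0.85, 0.0037 to 0.33 and -0.21 to -0.024, so those of Insr and Pik3cb came close to 0. The difference in the log2 ratio of Pik3r3 to Pik3r1 ranged from 0.032 to 0.27. With the block as an exact sign-flip test over pairs the ratio of Pik3ca to Pik3cb gave p = 0.5 and the other 3 ratios p = 0.25, where 0.25 is the smallest possible. Pik3ip1 and Irs2 rested on the fewest counts.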
